A study of Micropterus salmoides with 6 samples.

Results

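The genes described here run the handling of fatty acids in the cell: their activation, their oxidation in mitochondria and peroxisomes, their storage as triglyceride in lipid droplets, and the peroxisome proliferator-activated receptors (PPARs) that govern these steps. They were chosen by symbol, with a fixed pattern of gene names, which matched 60 of the 38342 genes of the deposited gene table. The tissue was the gut of Micropterus salmoides, the largemouth bass, with 3 libraries of intestine from fish held at 26 °C (the controls) and 3 from fish moved to 34 °C (the heat group), both sampled after 9 h. All fish had been acclimated at 26 °C on a commercial feed and carried no stated genetic change, and their age and sex are not given in the sources used here. Each library pooled the intestine of 3 fish from 1 rearing parallel, so a value is an average over fish and the spread between libraries understates that between single fish. The whole intestine was used, so fewer cells of a type and less RNA per cell cannot be told apart.

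A long-chain fatty acid that enters an enterocyte, the absorptive cell of the gut lining, is joined to coenzyme A by an acyl-CoA synthetase and then takes either of the main routes. It can be passed into mitochondria by the carnitine shuttle and shortened step by step by dehydrogenases, hydratases and thiolases, which hand electrons to the respiratory chain through the electron transfer flavoprotein. Or it can be esterified by monoacylglycerol and diacylglycerol acyltransferases into triglyceride, which is packed into lipoproteins or kept in lipid droplets coated by perilipins. PPARs are nuclear receptors that bind fatty acids. In mammals PPAR alpha switches on oxidation genes, while PPAR gamma is best known for lipid storage. Perilipin 2 and some, not all, of the pyruvate dehydrogenase kinases are among known PPAR targets there.

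At 34 °C 1 of these genes rose past the threshold, the droplet coat gene plin2, and 0 were called lower. Of the 60 members 55 passed the filter on low counts and were tested, and 54 did not pass (edgeR quasi-likelihood test, adjusted over all 20326 genes tested by the Benjamini-Hochberg method, threshold 0.05). Over all genes tested, 0.59% were called higher and 0.394% lower, 0.984% in either direction. A log2 fold change, heat minus control throughout, lay above 0 for 13 members and below 0 for 42, with a median of -0.43 and a range from -2.04 to 2.25. Over all genes tested the median was -0.12, with 8551 above 0 and 11775 below. At an unadjusted p under 0.05, 6 members were higher and 12 lower, 10.9% and 21.8% of those tested, against 6.86% and 9.78% over all genes. DESeq2, run as an alternative, called 3 members higher and 5 lower of 57, against 2.86% and 3.21% over all genes. The limma test on log2(TPM + 1) called 0. In 8 members (14.5%) all heat libraries lay above all controls and in 16 (29.1%) all lay below, against 11.5% and 14.4% of all genes tested. These counts are in CPM, and in TPM the groups of 9 of these 24 members overlapped (acsl3b, ppargc1a, ppargc1b, dgat1b, cpt2, acadl, acadsb, acox3 and fabp3). Shares of non-overlap over all genes were taken in CPM alone, here and below.

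The sign of many members turned on 1 library, control replicate 1. Its depth was 28.8 M counts, against 8.24 M to 15.7 M in the other libraries. Across genes its log2 CPM, counts per 1e+06 on scaled library sizes, had a correlation of 0.875 and 0.853 with the other controls, which had one of 0.932 with each other (genes are not independent replicates). It held the highest value of the 6 libraries in 38 of the 55 tested members (69.1%), against 33.7% of all genes tested, and lay above both other controls in 43, where 44.6% of all genes did so. Set against control replicates 2 and 3 alone, all heat libraries lay above in 17 members (30.9%, against 24.2% of all genes) and below in 18 (32.7%, against 25.3%). Its level was 1.65 times the mean of the other controls in the median member, against 1.04 times in the median gene. Counts of all members made up 0.606% of this library, 0.367% and 0.328% of control replicates 2 and 3, and 0.357%, 0.502% and 0.463% of the heat libraries. Without that library, 6 members were called higher (plin2, cidec, acsl4a, acsl3a, etfdh and dgat2) and 3 lower (decr2, pdk2a and mogat3b), against 4.61% and 4.11% of all 20945 genes then tested. The median of the members was then 0.042, with 29 above 0 and 26 below. That fit keeps 2 controls.

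Enterocyte markers moved with that library. The summed level of 6 of them (apoa1b, slc15a1a, slc5a1, anpepa, cdx1b and fabp2, the last also a member) was 22821, 4900.2 and 8129.5 CPM in control replicates 1, 2 and 3 and 7200.0, 7934 and 7226 CPM in heat replicates 1, 2 and 3. Control replicate 1 held the highest value for 5 of the 6 markers. None passed the edgeR test with 6 libraries, 1 of them did so at an unadjusted p under 0.05, and DESeq2 called anpepa lower. In the fit of 5 libraries, which leaves out control replicate 1, 5 of the 6 markers lay above 0, with a median of 0.32, and the sixth, anpepa, passed as lower. The goblet cell marker agr2 was at 163, 46.2 and 37.9 CPM at 26 °C and 71.1, 140.1 and 112 CPM at 34 °C, with control replicate 1 at 3.88 times the mean of the other controls, and passed as higher without that library (1.37, edgeR adjusted p = 0.0380) but not with it (0.38). Smooth muscle markers moved with temperature, with 3 of 9 called lower with 6 libraries (synm, smtna and lmod1b), 5 of 9 without control replicate 1, 6 of 9 with DESeq2, and a summed level of 5352.9 to 11675 CPM at 26 °C against 4140.2 to 4647 CPM at 34 °C. Of 7 adipocyte markers, all but lepb and lpl are also members. Among the 7, 5 were tested and none passed the edgeR test with 6 libraries. At an unadjusted p under 0.05, with DESeq2 and without control replicate 1, cidec passed as higher and lpl as lower. The sum of the adipocyte markers ran from 119 to 123 CPM at 26 °C and from 120.1 to 149.5 CPM at 34 °C, with lepb and fabp4b at 0 in every library. The 4 macrophage markers, none past edgeR with 6 libraries or without control replicate 1 or past DESeq2 and 2 under an unadjusted p of 0.05, summed to 79.8 to 93.6 CPM at 26 °C and 53.7 to 61.6 CPM at 34 °C. Hepatocyte markers summed to 1.20 to 7.25 CPM and skeletal muscle markers to 0 to 3.65 CPM. The T cell markers cd8a and lck summed to 45.2, 20.2 and 17.4 CPM at 26 °C and 15.7, 12.5 and 15.8 CPM at 34 °C, and neither passed in these fits. Among them lck alone was under an unadjusted p of 0.05 by edgeR, and the groups of cd8a overlapped. In TPM the sums of the macrophage and of the T cell markers overlapped between groups, while those of the smooth muscle markers did not. Sums of the exocrine pancreas, enteric neuron and red cell markers overlapped between groups, and none of these markers passed. These lists move beside the genes below, enterocyte, goblet and T cell markers with control replicate 1. In CPM sums, smooth muscle, macrophage and T cell markers go with the lower values at 34 °C. The part of these lists in the results was not tested.

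Levels can be compared between genes only per length, and for that the deposited TPM values, scaled by transcript length, are used. The long-chain acyl-CoA synthetase acsl5 stood highest, at a mean of 1203 TPM over the 6 libraries, followed by the intestinal fatty acid binding protein fabp2 at 949 TPM. Then came the droplet coat gene plin3 at 186 TPM, the triglyceride-forming acyltransferase dgat2 at 153 TPM, plin2 at 142 TPM, mogat2 at 108 TPM and pparg at 108 TPM. These ranks are of means, and neighbours overlapped between libraries: fabp2 ran from 406 to 2139 TPM and acsl5 from 721 to 1810.4 TPM. Counts of acsl5 alone made up 25.0% to 33.5% of all member counts in a library. Among the enzymes of oxidation the highest means were acadl at 92.7 TPM and decr2 at 88.9 TPM. The untested members were cpt1b and acsl2, with at most 0.967 and 0.645 CPM in a library, fabp7a and fabp10a, with at most 1.299 and 0.165 CPM, and fabp4b, at 0 in all 6.

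**Figure D1:**
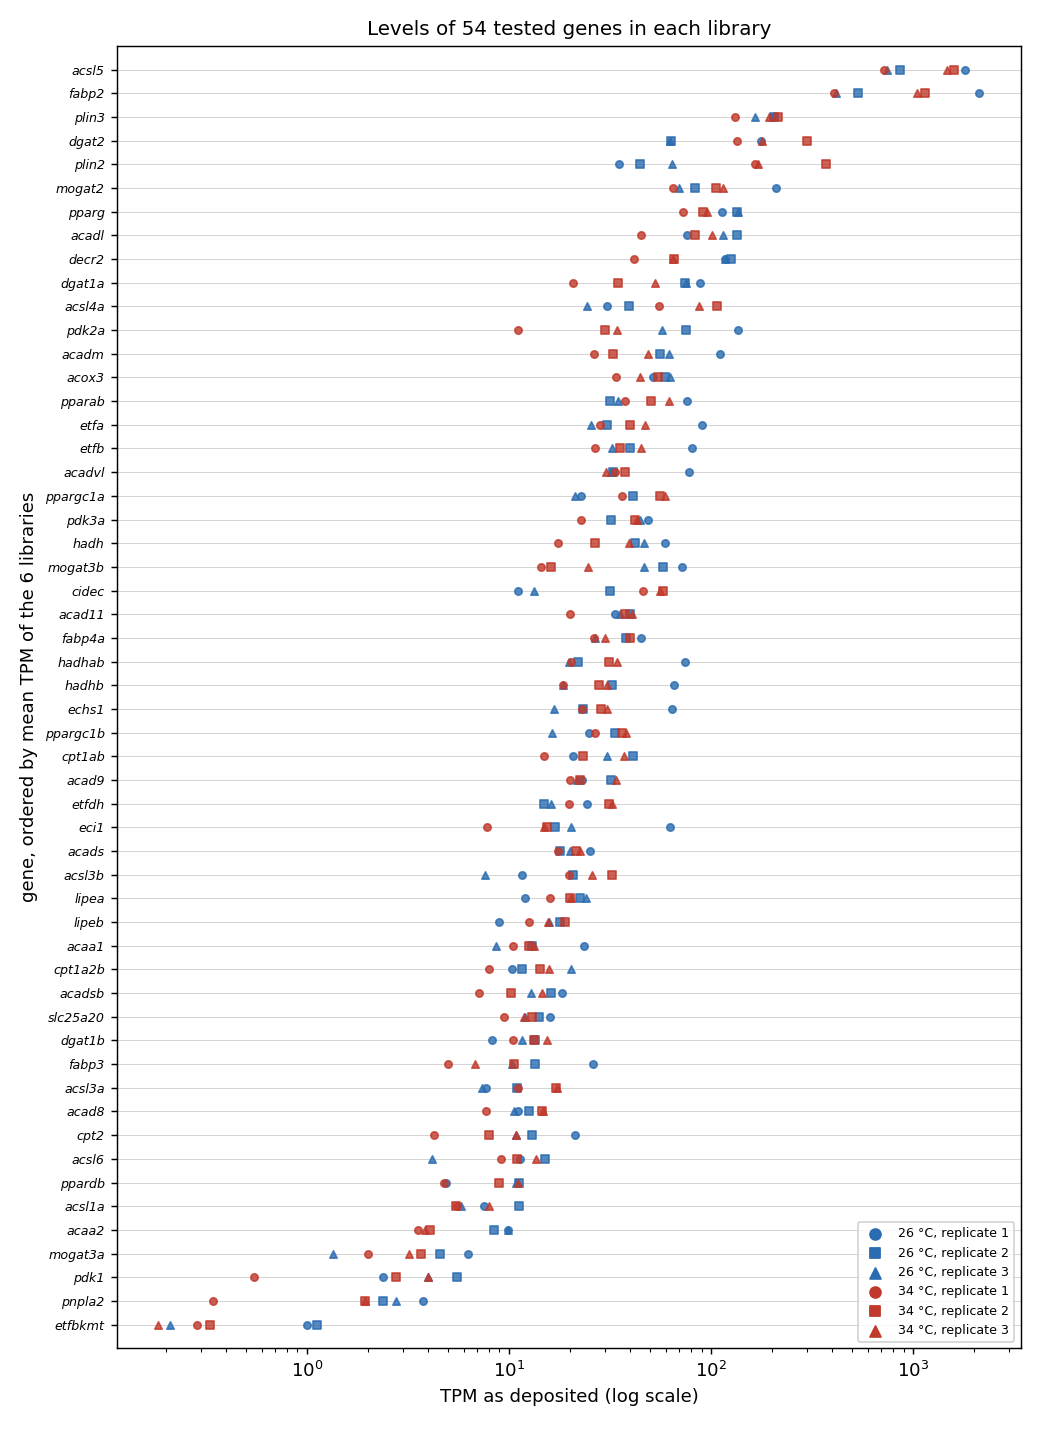
Deposited TPM of 54 tested genes (x axis, log scale) in the 3 libraries from 26 °C (blue) and the 3 from 34 °C (red), with the marker shape giving the replicate and genes ordered by their mean. The synthetase acsl5 and the binding protein fabp2 stand apart at the top, and plin2 is among the genes whose red and blue points do not overlap.

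Droplet coat and lipolysis genes held the only member past the threshold with 6 libraries. The perilipin gene plin2 (NW_024041150.1, 21364492 to 21368995, minus strand) encodes a protein that coats lipid droplets in most cells. It was at 40.8, 35.7 and 60.0 CPM in control replicates 1, 2 and 3 and at 206, 305 and 137 CPM in heat replicates 1, 2 and 3. Each heat library lay above each control, and control replicate 1 was not the extreme one here. The means were 45.5 ± 12.9 CPM at 26 °C and 216 ± 84.6 CPM at 34 °C (mean ± SD, n = 3), 4.76-fold higher (adjusted p = 0.0462 by edgeR; log2 change 2.25, SE 0.38). Without control replicate 1 the log2 fold change was 2.19 (SE 0.40, edgeR adjusted p = 0.0262), and over all 16 alternatives the adjusted p ran from 2.1e-06 to 0.227 and was under the threshold in 7. It was past it with DESeq2, with each edgeR fit of the 6 libraries that changed only scaling, filter, dispersion or the tested classes, and without control replicate 1, but not with limma on TPM, nor in any fit that left out another library (log2 fold changes from 1.91 to 2.53 over the 6 such fits).

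The second droplet gene, cidec (NW_024043372.1, 30784451 to 30789865, plus strand), encodes a protein that in mammals enlarges droplets by fusing them. It was at 8.50, 16.4 and 10.3 CPM at 26 °C and 43.4, 34.8 and 33.99 CPM at 34 °C, replicates in order. Again the groups did not overlap, and the means differed 3.19-fold, but the gene missed the threshold with 6 libraries (adjusted p = 0.0544 by edgeR; log2 change 1.67, SE 0.31). Without control replicate 1 its log2 fold change was 1.4997 with an edgeR adjusted p of 0.0226, within a range of 0.000293 to 0.276 over the alternatives. Perilipin 3, plin3, which coats small and nascent droplets, was at 258, 178 and 168 CPM at 26 °C and 179, 193 and 169 CPM at 34 °C, so that the groups overlapped (adjusted p = 0.817 by edgeR; log2 change -0.16, SE 0.28, and 0.071 without control replicate 1). In TPM, plin2 was at 47.9 ± 14.9 and plin3 at 191 ± 22.5 in the controls, while at 34 °C plin2 was at 236 ± 118 and plin3 at 181 ± 43.3 (mean ± SD, n = 3). The lowest plin3 control was thus above the highest plin2 control, and at 34 °C the ranges of the 2 genes overlapped.

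The lipase members that release fatty acids from droplets held no call with 6 libraries, 0 of 3 by edgeR and by DESeq2 and 0 at an unadjusted p under 0.05. Adipose triglyceride lipase, pnpla2, was at 6.99, 3.09 and 4.12 CPM at 26 °C and 0.779, 2.56 and 2.502 CPM at 34 °C, and all heat libraries lay below the controls (adjusted p = 0.301 by edgeR; log2 change -1.25, SE 0.54, and -0.84 without control replicate 1). A copy outside the name pattern, LOC119893136, had a mean of 31.4 TPM, against 2.19 TPM for pnpla2. This copy was at 29.3, 55.5 and 18.4 CPM at 26 °C and 17.5, 16.3 and 19.6 CPM at 34 °C, with overlapping groups. Its log2 fold change was -0.95 (SE 0.40, edgeR unadjusted p = 0.045, adjusted p = 0.287), and -1.03 without control replicate 1. Hormone-sensitive lipase has 2 copies, lipea and lipeb, and both overlapped between groups, with log2 fold changes of -0.034 and 0.15 (-0.18 and 0.017 without control replicate 1). Over the 6 tested genes of this role, 1 was called higher by edgeR and 2 by DESeq2, against 0.59% and 2.86% of all genes. Of the 6, 3 had a log2 fold change above 0, and the median was 0.057, and 0.044 without control replicate 1. The gene cidec is also on the adipocyte marker list, whose other tested genes were fabp4a, lipea and lipeb, at log2 fold changes of -0.28, -0.034 and 0.15, and lpl, outside the name pattern, at 34.2, 19.7 and 18.7 CPM at 26 °C and 9.48, 10.9 and 9.43 CPM at 34 °C (adjusted p = 0.103 by edgeR; log2 change -1.28, SE 0.31; without control replicate 1 -0.93, adjusted p = 0.0378, range over the alternatives 0.0179 to 0.375).

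**Figure D2:**
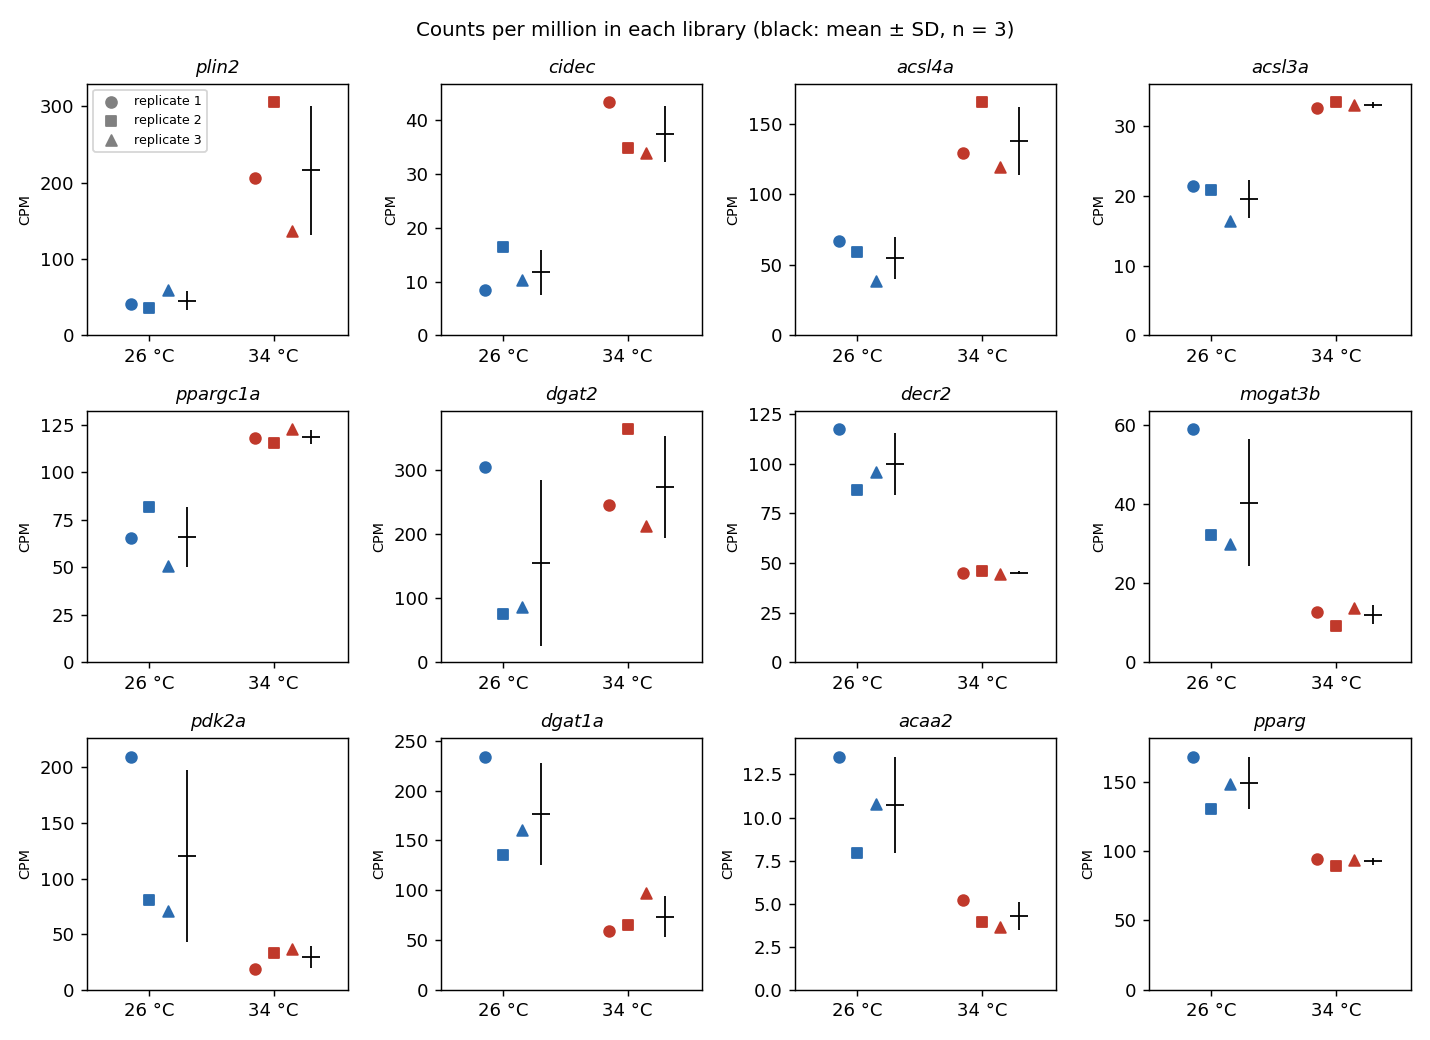
CPM in each library (y axis from 0, own scale in each panel) for 12 members at 26 °C (blue) and 34 °C (red), with marker shapes for replicates and black bars for the mean ± SD of n = 3. Heat libraries lie above all controls for plin2 and cidec and below all controls for decr2 and pdk2a, while for dgat2 control replicate 1, at 304 CPM, lies among the heat libraries.

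In triglyceride synthesis the diacylglycerol acyltransferase types DGAT1 and DGAT2 make the same product but belong to unrelated protein families. Of the genes dgat1a, dgat1b and dgat2, dgat1a had a log2 fold change below 0 and the others above 0, and none passed with 6 libraries by edgeR. The gene dgat1a (NW_024040817.1, 15696264 to 15711856, plus strand) was at 234, 136 and 160.3 CPM at 26 °C and 58.5, 64.8 and 96.7 CPM at 34 °C, below every control in each heat library (2.41-fold lower, adjusted p = 0.117 by edgeR; log2 change -1.27, SE 0.33). For dgat2 (NW_024044681.1, 32517652 to 32529605, plus strand) the values were 304, 74.9 and 86.8 CPM at 26 °C and 245, 362 and 212 CPM at 34 °C. Control replicate 1 lay within the heat range, at 3.76 times the mean of the other controls, and with it the difference did not pass (adjusted p = 0.517 by edgeR; log2 change 0.81, SE 0.56). Without it the log2 fold change of dgat2 was 1.77 (SE 0.27, edgeR adjusted p = 0.0177, range over the alternatives 0.0177 to 0.829), and that of dgat1a was -0.999 (edgeR adjusted p = 0.0525, range 0.0141 to 0.447). Opposite signs of dgat1a and dgat2 thus stood in both fits, and the difference between the 2 genes was not tested. The second DGAT1 copy, dgat1b, lay within 13.0 to 17.8 CPM in all 6 libraries (log2 fold change 0.22, and 0.18 without control replicate 1).

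Monoacylglycerol acyltransferases rebuild triglyceride from the monoacylglycerol taken up from the gut lumen. With 6 libraries the log2 fold changes of mogat2, mogat3a and mogat3b all lay below 0. That of mogat3a was -0.64, and 0.086 without control replicate 1. The copy mogat3b (NW_024044681.1, 26668492 to 26671908, plus strand) was at 59.0, 32.4 and 30.0 CPM at 26 °C and 12.9, 9.34 and 13.9 CPM at 34 °C, with no overlap (3.36-fold lower, adjusted p = 0.0614 by edgeR; log2 change -1.75, SE 0.34). Without control replicate 1 it passed as lower, at a log2 fold change of -1.36 (edgeR adjusted p = 0.0221, range over the alternatives 0.000745 to 0.326), and DESeq2 called it lower with all 6. The copy mogat2, the higher of these genes in TPM, was at 230.2, 63.2 and 62.7 CPM at 26 °C and 76.1, 82.2 and 87.4 CPM at 34 °C. Its log2 fold change was -0.54 with control replicate 1 and 0.39 without, neither past the threshold. Of the 6 tested genes of triglyceride synthesis none passed with edgeR in 6 libraries. At an unadjusted p under 0.05, 2 were lower, against 9.78% of all genes, and DESeq2 called 2 lower (dgat1a and mogat3b), against 3.21%. The median of the 6 genes was -0.59, and 0.13 without control replicate 1.

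Among the acyl-CoA synthetases, which activate long-chain fatty acids for either route, 3 of the 6 tested genes lay higher in every heat library than in any control in CPM, where 11.5% of all genes did so, and 2 of the 3 in TPM, where acsl3b overlapped. The highest fold was that of acsl4a (NW_024044237.1, 11450808 to 11462559, minus strand), known in mammals for its preference for arachidonic acid, at 67.2, 59.4 and 38.3 CPM at 26 °C and 129.5, 165 and 119 CPM at 34 °C (2.51-fold higher, adjusted p = 0.0870 by edgeR; log2 change 1.33, SE 0.30). The copies acsl3a and acsl3b, related to the mammalian droplet-associated ACSL3, followed. Levels of acsl3a were 21.5, 20.8 and 16.5 CPM at 26 °C and 32.6, 33.4 and 33.0 CPM at 34 °C. Those of acsl3b were 33.7, 38.9 and 17.0 CPM at 26 °C and 60.5, 64.0 and 50.3 CPM at 34 °C. Their log2 fold changes were 0.75 (SE 0.23, edgeR adjusted p = 0.162) and 0.96 (SE 0.33, edgeR adjusted p = 0.211), and that of acsl3b was 1.07 without control replicate 1. None of the 3 passed with 6 libraries, though all 3 were under an unadjusted p of 0.05. DESeq2 called acsl4a, and without control replicate 1 acsl4a (1.51, edgeR adjusted p = 0.0216, range over the alternatives 0.00218 to 0.378) and acsl3a (0.84, edgeR adjusted p = 0.0380, range 0.0380 to 0.558) passed as higher.

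The main synthetase of this tissue, acsl5 (NW_024041262.1, 21607879 to 21620282, plus strand), had a different pattern. It was at 2514, 822 and 830.3 CPM at 26 °C and 1067, 1568 and 1418 CPM at 34 °C. Control replicate 1 held 3.04 times the mean of the other controls. In CPM it lay above every heat library, while the other controls lay below every heat library. In TPM heat replicate 1, at 721, lay below control replicates 2 and 3, at 862 and 743. The log2 fold change was accordingly -0.040 (SE 0.53, edgeR adjusted p = 0.980) with all 6 libraries and 0.72 (SE 0.23, edgeR adjusted p = 0.0987, range over the alternatives 0.0987 to 0.9995) without control replicate 1. With 6 libraries edgeR called 0 of the 6 synthetases. At an unadjusted p under 0.05, 3 were higher, against 6.86% of all genes, and DESeq2 called 1 higher, against 2.86%. The median log2 fold changes of the synthetases were 0.44 and 0.78 with and without control replicate 1.

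Fatty acid binding proteins carry fatty acids through the cytoplasm, and fabp2 is the classical enterocyte type. Counts of fabp2 (NW_024040263.1, 10703773 to 10706065, plus strand) came to 899, 154 and 141 CPM at 26 °C and 182, 339 and 305 CPM at 34 °C. The pattern was that of acsl5, with control replicate 1 at 6.08 times the mean of the other controls, and in CPM the 3 heat libraries between it and them. In TPM heat replicate 1, at 406, lay below control replicates 2 and 3, at 535 and 419. The log2 fold change of fabp2 was -0.53 (SE 0.72, edgeR adjusted p = 0.757) with all libraries and 0.91 (SE 0.28, edgeR adjusted p = 0.0886, range over the alternatives 0.0886 to 0.998) without control replicate 1. The muscle and heart type fabp3 was at 14.8, 5.29 and 4.78 CPM at 26 °C and 3.12, 4.28 and 2.69 CPM at 34 °C (adjusted p = 0.257 by edgeR; log2 change -1.30, SE 0.51, and -0.56 without control replicate 1), and the adipocyte type fabp4a at 19.8, 11.4 and 9.47 CPM at 26 °C and 12.3, 12.3 and 9.11 CPM at 34 °C (-0.28 on the log2 scale, and 0.12 without control replicate 1). None of the 3 passed in edgeR with 6 libraries or with 5, and DESeq2 called none. At an unadjusted p under 0.05, 1 was lower, against 9.78% of all genes.

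**Figure D3:**
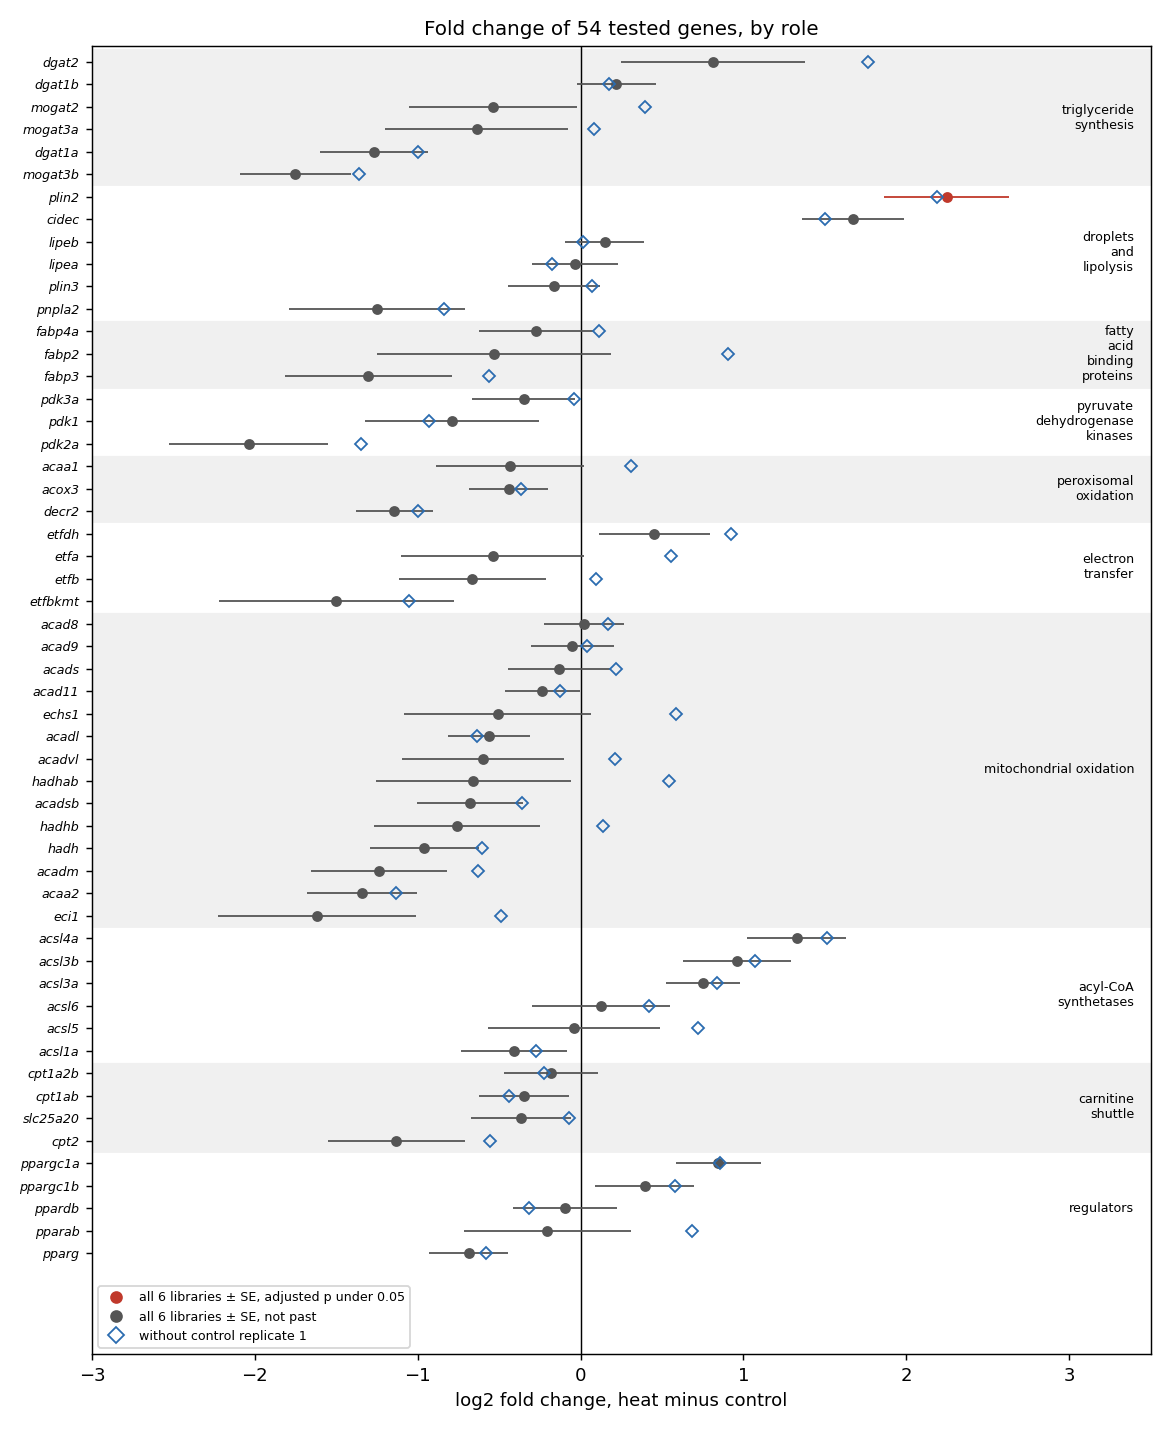
Log2 fold changes (heat minus control, x axis) of 54 tested genes by role, with bars of 1 SE for the fit of all 6 libraries and open points for the fit without control replicate 1. Only plin2 passes with all 6 libraries, and 13 of 14 genes of mitochondrial oxidation lie below 0 with control replicate 1 and 7 of 14 without it.

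In mitochondrial oxidation the sign of some genes, not all, turned on control replicate 1. Of its 14 genes, 13 lay below 0 with that library and 7 without it. The oxidation cycle is here a group of 14 genes placed by name, and not all need act on straight-chain fatty acids. It includes acadsb, annotated as the short/branched chain dehydrogenase, and the family members acad8, acad9 and acad11. Their substrates were not tested, nor was the place of their products in the cell, mitochondria or peroxisomes. No gene of the carnitine shuttle, the oxidation cycle or the electron transfer flavoprotein passed the edgeR test among 22 tested, 20 of which had a log2 fold change below 0 (median -0.58). At an unadjusted p under 0.05 there were 5, all lower, where 9.78% of all genes were lower. DESeq2 called 1, acaa2, as lower, where it called 3.21% of all genes lower. Control replicate 1 was the highest library for 18 of the 22. Without it the median was -0.10, with 10 genes above 0 and 12 below. In that fit 1 of the 22 was called, etfdh, as higher, against 4.61% of all genes called higher. The summed level of the 14 genes of this group was 962, 443 and 469 CPM at 26 °C and 398, 386 and 426 CPM at 34 °C. In CPM all heat sums lay below all control sums, the nearest being heat replicate 3 and control replicate 2. In TPM the sums overlapped, at 714, 488 and 442 TPM at 26 °C and 268, 395 and 460.2 TPM at 34 °C.

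Carnitine palmitoyltransferase 1 sits on the outer mitochondrial membrane and is the regulated entry step. Both detected copies overlapped between groups: cpt1ab (NW_024044570.1, 25222141 to 25242487, plus strand) was at 54.2, 73.6 and 63.8 CPM at 26 °C and 41.6, 42.8 and 66.3 CPM at 34 °C (adjusted p = 0.576 by edgeR; log2 change -0.35, SE 0.27, and -0.44 without control replicate 1), and cpt1a2b had a log2 fold change of -0.18 (-0.22 without control replicate 1). The muscle-type cpt1b, under the filter, had no heat library above 0.513 CPM and no control below 0.659 CPM. Its counts were 19, 15 and 8 at 26 °C and 0, 4 and 8 at 34 °C, so the nearest libraries of the groups differed only by scaling. For cpt2 (NW_024040374.1, 29132150 to 29135842, minus strand), the inner membrane partner, the values were 34.2, 14.4 and 14.0 CPM at 26 °C and 7.41, 9.10 and 12.1 CPM at 34 °C, all heat libraries below the controls (2.19-fold lower, adjusted p = 0.235 by edgeR; log2 change -1.13, SE 0.42). Without control replicate 1 the value was -0.56 (SE 0.26). The carrier slc25a20, which exchanges acylcarnitine for carnitine across the inner membrane, was at 17.6, 10.7 and 10.7 CPM at 26 °C and 11.2, 10.1 and 9.11 CPM at 34 °C (-0.37, and -0.068 without control replicate 1).

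Inside the group named as the cycle, 6 of 14 genes had all heat libraries below all controls (acadl, acadm, acadsb, hadh, acaa2 and eci1). None had them above, against 14.4% below and 11.5% above over all genes tested. In TPM acadl and acadsb overlapped, which left 4. The mitochondrial thiolase acaa2 (NW_024044459.1, 17871197 to 17876937, minus strand), which cuts off acetyl-CoA, was at 13.5, 7.93 and 10.8 CPM at 26 °C and 5.20, 3.93 and 3.66 CPM at 34 °C (2.52-fold lower, adjusted p = 0.109 by edgeR; log2 change -1.34, SE 0.34, and -1.13 without control replicate 1). It shares 2130 bases with mrpl40 on the other strand, a gene at a mean of 5.08 CPM beside 7.50 CPM for acaa2, and the strand setting of the counting is not given, so reads of the shared stretch cannot be told apart. In all, 8 members overlap a gene on the opposite strand, among them acsl4a by 89 bases, etfdh by 4, mogat2 by 1480 and acad11 by 4325. Medium-chain acyl-CoA dehydrogenase, acadm (NW_024040485.1, 8088573 to 8097444, plus strand), was at 145, 49.8 and 64.7 CPM at 26 °C and 36.5, 29.9 and 43.6 CPM at 34 °C (adjusted p = 0.202 by edgeR; log2 change -1.24, SE 0.42, and -0.63 without control replicate 1), and long-chain acadl (NW_024040040.1, 18325952 to 18338911, plus strand) at 93.1, 113 and 112 CPM at 26 °C and 58.6, 72.0 and 84.9 CPM at 34 °C (adjusted p = 0.316 by edgeR; log2 change -0.56, SE 0.25). In acadl control replicate 1 was the lowest control, and the value without it was -0.64. Hydroxyacyl-CoA dehydrogenase, hadh, was at 43.7, 21.2 and 27.4 CPM at 26 °C and 13.8, 13.9 and 19.8 CPM at 34 °C (adjusted p = 0.213 by edgeR; log2 change -0.96, SE 0.33, and -0.60 without control replicate 1), and the isomerase eci1, which moves double bonds into place, at 65.2, 12.1 and 17.0 CPM at 26 °C and 8.70, 11.3 and 10.7 CPM at 34 °C, where control replicate 1 stood at 4.48 times the mean of the other controls (adjusted p = 0.239 by edgeR; log2 change -1.62, SE 0.61, and -0.49 without control replicate 1).

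The subunits of the trifunctional protein, which carries out the later steps for long chains, turned sign with that library. The alpha subunit gene hadhab was at 139, 28.2 and 29.6 CPM at 26 °C and 40.1, 40.9 and 43.9 CPM at 34 °C. In CPM every heat library lay below control replicate 1 and above the other controls. In TPM heat replicate 1, at 20.3, lay below control replicate 2, at 22.0. The log2 fold change of hadhab was -0.66, and 0.54 without control replicate 1. The beta subunit gene hadhb gave -0.76 and 0.14, the hydratase echs1 -0.51 and 0.59, and the very-long-chain dehydrogenase acadvl -0.60 and 0.21. None of these 4 passed in either fit. All 4 turned from below 0 to above 0 without control replicate 1.

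Among the electron transfer genes the signs of etfa and etfb also turned on that library. The flavoprotein subunit genes etfa and etfb were at 86.3, 20.2 and 19.8 and at 78.4, 26.5 and 25.4 CPM at 26 °C, and at 29.1, 26.8 and 31.1 and at 27.8, 24.4 and 30.1 CPM at 34 °C. Control replicate 1 lay at 4.32 and 3.02 times the mean of the other controls. The log2 fold changes were -0.54 and -0.66, and without control replicate 1 0.55 and 0.10. The dehydrogenase etfdh (NW_024044237.1, 29229992 to 29256260, plus strand), which passes the electrons on to ubiquinone, was at 38.0, 15.9 and 20.3 CPM at 26 °C and 32.9, 34.1 and 34.7 CPM at 34 °C (adjusted p = 0.554 by edgeR; log2 change 0.45, SE 0.34). Leaving out control replicate 1, it was past the threshold as higher (log2 fold change 0.92, SE 0.19, edgeR adjusted p = 0.0335, range over the alternatives 0.0335 to 0.796). The methyltransferase gene etfbkmt, whose product in mammals modifies the beta subunit, was under 3 CPM in every library (adjusted p = 0.349 by edgeR; log2 change -1.50, SE 0.72, and -1.05 without control replicate 1). None of the 4 genes passed edgeR with 6 libraries, at an unadjusted p under 0.05 or in DESeq2.

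**Figure D4:**
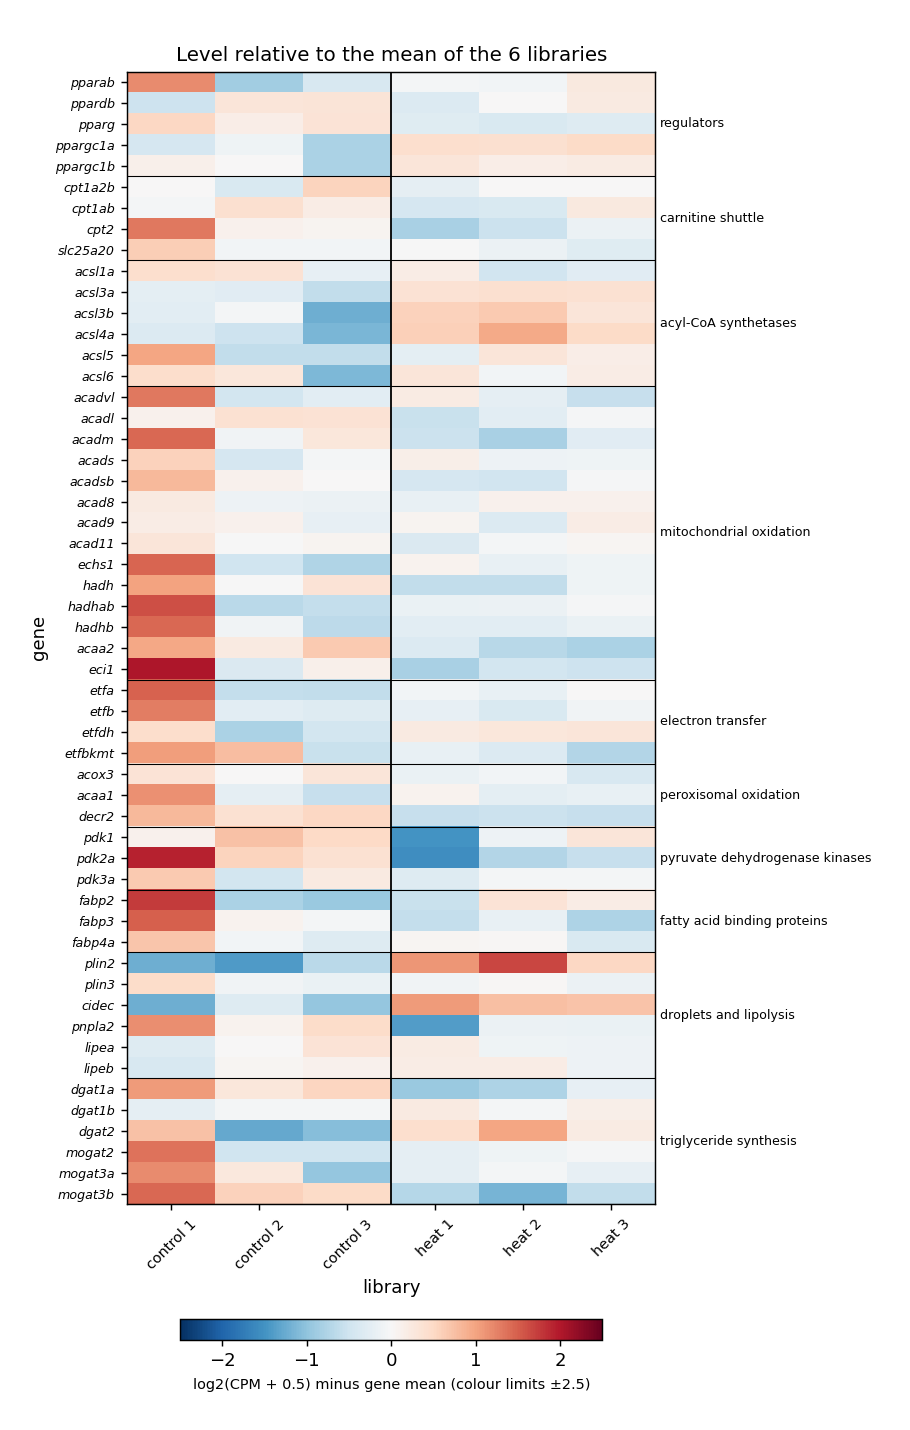
Level of 54 tested genes in each library as log2(CPM + 0.5) minus the mean of the gene over the 6 libraries (colour, red above and blue below, limits at 2.5), with genes by role. Control replicate 1 is red through most of mitochondrial oxidation, electron transfer and the binding proteins, whereas plin2 and cidec are red in the heat libraries alone.

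In peroxisomal oxidation the genes decr2 and acox3 had all heat libraries below all controls, and both had log2 fold changes below 0 with and without control replicate 1. The reductase decr2 (NW_024041262.1, 11804173 to 11809621, plus strand), which handles double bonds of polyunsaturated chains, was at 117, 86.8 and 95.5 CPM at 26 °C and 44.8, 46.1 and 44.7 CPM at 34 °C. The heat libraries had an SD of 0.802 CPM (n = 3) and lay below every control (2.21-fold lower, adjusted p = 0.0695 by edgeR; log2 change -1.14, SE 0.23). Without control replicate 1 the gene passed as lower, at a log2 fold change of -0.998 (SE 0.15, edgeR adjusted p = 0.0164, range over the alternatives 0.00160 to 0.354), and DESeq2 called it with all 6. The acyl-CoA oxidase gene acox3, whose product catalyses a first step of peroxisomal oxidation, was at 119.5, 94.1 and 116 CPM at 26 °C and 83.0, 89.0 and 70.7 CPM at 34 °C. Its log2 fold change was -0.44 (SE 0.24, edgeR adjusted p = 0.414), and -0.36 without control replicate 1. The peroxisomal thiolase acaa1 overlapped (-0.43, and 0.31 without control replicate 1). With 6 libraries edgeR called none of these 3 genes, and DESeq2 called decr2 alone among them, where it called 3.21% of all genes lower.

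Pyruvate dehydrogenase kinases, which shut the entry of pyruvate into the citric acid cycle and so favour fatty acids as fuel, held the lowest log2 fold change of all members. The gene pdk2a (NW_024041262.1, 22554927 to 22562504, minus strand) was at 209.8, 80.3 and 71.1 CPM at 26 °C and 18.4, 32.6 and 36.8 CPM at 34 °C, with every heat library below every control. The means differed 4.11-fold (adjusted p = 0.0979 by edgeR; log2 change -2.04, SE 0.49). Here control replicate 1 widened the difference, and without it the log2 fold change was -1.35 (SE 0.28, edgeR adjusted p = 0.0340, range over the alternatives 0.00204 to 0.364), past the threshold. The other kinase members overlapped between groups, pdk1 at 4.16, 6.64 and 5.60 CPM at 26 °C and 1.04, 3.45 and 4.81 CPM at 34 °C and pdk3a at 66.6, 30.2 and 49.2 CPM at 26 °C and 33.4, 40.7 and 40.6 CPM at 34 °C (-0.79 and -0.35 on the log2 scale, and -0.93 and -0.041 without control replicate 1). No gene named pdk4 was among the members. With 6 libraries edgeR called none of the 3. At an unadjusted p under 0.05, 1 was lower, against 9.78% of all genes, and DESeq2 called pdk2a lower, against 3.21%. The locus-numbered isozyme 2 copies LOC119884287 and LOC119907792 also had all heat libraries below all controls in CPM, the second not in TPM. They were at 13.6, 10.1 and 11.5 and at 12.4, 11.3 and 12.1 CPM at 26 °C. At 34 °C they were at 6.24, 5.83 and 9.36 and at 5.46, 5.89 and 10.6 CPM. Both log2 fold changes were -0.71 (edgeR adjusted p = 0.305 and 0.348), and -0.58 and -0.66 without control replicate 1. The isozyme 3 copy LOC119887935 overlapped.

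The PPAR genes and their coactivators were not called in any fit run. PPAR gamma, pparg (NW_024043372.1, 17958280 to 17992488, plus strand), the most abundant of the 3 receptors in TPM, was at 168, 131 and 148 CPM at 26 °C and 94.6, 89.5 and 93.3 CPM at 34 °C. Heat libraries lay close together and below every control (1.61-fold lower, adjusted p = 0.214 by edgeR; log2 change -0.69, SE 0.24, and -0.58 without control replicate 1). PPAR alpha, pparab (NW_024044570.1, 11802661 to 11838167, plus strand), was at 229, 54.7 and 75.9 CPM at 26 °C and 96.9, 95.7 and 119.6 CPM at 34 °C. Like acsl5, it had control replicate 1 above and the other controls below all heat libraries, with a log2 fold change of -0.20 (SE 0.51, edgeR adjusted p = 0.878) and of 0.69 (SE 0.21, edgeR adjusted p = 0.0914, range over the alternatives 0.0914 to 0.962) without it. PPAR delta, ppardb, was at 12.1, 21.5 and 22.0 CPM at 26 °C and 13.8, 17.5 and 20.5 CPM at 34 °C, with overlapping groups (adjusted p = 0.910 by edgeR; log2 change -0.10, SE 0.32, and -0.32 without control replicate 1). The coactivator PGC-1 alpha, ppargc1a (NW_024041150.1, 21863553 to 22116805, plus strand), a driver of mitochondrial gene expression in mammals, was at 65.6, 81.8 and 50.7 CPM at 26 °C and 118, 115 and 123 CPM at 34 °C, above every control in each heat library (1.80-fold higher, adjusted p = 0.171 by edgeR; log2 change 0.85, SE 0.26, and 0.86 without control replicate 1). Its relative ppargc1b lay higher by less, at 133, 123 and 69.9 CPM at 26 °C and 151, 137 and 139.9 CPM at 34 °C (adjusted p = 0.564 by edgeR; log2 change 0.39, SE 0.30, and 0.58 without control replicate 1). Of these 5 genes 2 were under an unadjusted p of 0.05, 1 in each direction, against 6.86% higher and 9.78% lower over all genes. DESeq2 called none of the 5. In TPM the groups of ppargc1a and ppargc1b overlapped, while those of pparg did not.

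Copies of the same enzymes and carriers that the gene table names by locus number and product description, outside the name pattern, numbered 24, of which 18 were tested. None passed with edgeR, 1 was higher and 5 lower at an unadjusted p under 0.05 (5.56% and 27.8%, against 6.86% and 9.78% of all genes), and DESeq2 called 1 lower. Their median was -0.41 on the log2 scale, and -0.31 leaving out control replicate 1. In the latter fit 1 copy was called higher and 1 lower, against 4.61% and 4.11% of all genes. The liver-type fatty acid binding protein LOC119892406 (NW_024044459.1, 19511551 to 19512468, plus strand) was at 968, 125 and 166 CPM at 26 °C and 542, 804 and 569 CPM at 34 °C, the fabp2 pattern with control replicate 1 at 6.65 times the mean of the other controls (adjusted p = 0.731 by edgeR; log2 change 0.60, SE 0.75). Without that library its log2 fold change was 2.14 (SE 0.27, edgeR adjusted p = 0.0134, range over the alternatives 0.0134 to 0.930). In TPM this copy averaged 2094, above fabp2 at 949. On that scale its heat replicate 2, at 3743, lay above control replicate 1, at 3174. Both intestinal-like copies, LOC119911470 and LOC119911473, gave nearly the same values in each library (247, 28.2 and 31.5 CPM for the first in the controls and 247, 28.2 and 31.0 CPM for the second). Whether the counts tell them apart is uncertain, and their sequences were not compared. Their log2 fold changes were -0.23 and -0.22, and 1.56 and 1.57 without control replicate 1, and neither passed in either fit. The acyl-CoA dehydrogenase 11-like LOC119892193 was at 28.7, 35.8 and 37.1 CPM at 26 °C and 17.7, 12.1 and 19.8 CPM at 34 °C (adjusted p = 0.121 by edgeR; log2 change -1.04, SE 0.27; without control replicate 1 -1.13, adjusted p = 0.0380, range over the alternatives 0.0380 to 0.449) and was the copy that DESeq2 called. Of 3 copies described as angiopoietin-like 4, a secreted lipase inhibitor and known PPAR target in mammals, LOC119900507 was at 35.1, 41.2 and 77.4 CPM at 26 °C and 91.8, 60.7 and 355 CPM at 34 °C, where heat replicate 3 stood above all other libraries and the groups overlapped (adjusted p = 0.254 by edgeR; log2 change 1.73, SE 0.67, and 1.53 without control replicate 1). Without heat replicate 3 its value was 0.57. The other copies, LOC119892843 and LOC119902244, had log2 fold changes of 0.076 and -0.46, and -0.31 and -0.39 without control replicate 1.

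The wider lipid pathway was read from a list of 95 other genes, of which 87 were tested. None passed with edgeR. At an unadjusted p under 0.05, 6 were higher and 10 lower, 6.9% and 11.5%, against 6.86% and 9.78% of all genes. DESeq2 called 4 higher and 5 lower of 88, 4.55% and 5.68%, against 2.86% and 3.21%. The median log2 fold change was -0.20, with 34 above 0 and 53 below. Leaving out control replicate 1, it was 0.18, with 52 above 0 and 36 below. In that fit 7 of 88 genes were called higher and 2 lower, against 4.61% and 4.11% of all genes. By step, the medians with and without that library were 0.11 and 0.33 for uptake and activation, -0.31 and 0.15 for other carnitine and peroxisome genes, -0.18 and -0.023 for fatty acid and glycerolipid synthesis and 0.10 and 0.36 for the pyruvate dehydrogenase complex. Genes named from this list were chosen after their values were seen. The phosphatidate phosphatases, which make the diacylglycerol that dgat1a and dgat2 use, split: lpin1 was at 8.71, 15.9 and 11.6 CPM at 26 °C and 2.86, 3.81 and 3.78 CPM at 34 °C (adjusted p = 0.0609 by edgeR; log2 change -1.78, SE 0.35; without control replicate 1 -1.96, adjusted p = 0.0150, range over the alternatives 0.00121 to 0.433) and lpin2 at 159, 143 and 135 CPM at 26 °C and 299.7, 400.4 and 239 CPM at 34 °C (adjusted p = 0.128 by edgeR; log2 change 1.10, SE 0.30; without control replicate 1 1.18, adjusted p = 0.0368, range over the alternatives 0.00735 to 0.472). Neither overlapped between groups. The fatty acid transporter cd36 was at 999.7, 342 and 346 CPM at 26 °C and 225, 341 and 262 CPM at 34 °C (adjusted p = 0.346 by edgeR; log2 change -1.03, SE 0.49, and -0.30 without control replicate 1), with control replicate 1 at 2.91 times the mean of the other controls.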

How the data were processed

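Intestinal RNA from 3 control pools (26 °C) and 3 heat pools (34 °C) was measured after 9 h, each pool holding 3 fish. Each deposited table gives, per the file headers, whole-number counts and TPM values for every library. Tools listed in the submitters' processing notes are HISAT2 2.1.0, StringTie 1.3.3 and DESeq, with no role stated; genome build, annotation and strand setting are not given in the sources used here. Positions are those of the deposited table. Total counts ran from 8.24 M to 28.8 M per library.

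The 2488 assembled genes that repeat the 3399 lncRNA transcripts were taken out of the gene class. Counts of genes and lncRNA transcripts entered 1 edgeR 4.0.16 quasi-likelihood fit (R 4.3.3; filterByExpr, minimum count 10, minimum total 15; TMM scaling), with Benjamini-Hochberg adjustment within genes. CPM use TMM-scaled library sizes, and the SE comes from the F statistic. The scripts were tested on simulated data. Replicate numbers do not mark shared tanks in the labels, so no replicate term was used. P-values measure the spread between pools. Counting precision follows from depth, and deposited TPM carry none.

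Alternatives were RLE or upper-quartile scaling, DESeq2 1.42.0, no filter, robust dispersion, limma 3.58.1 on log2(TPM + 1) and log2(TPM + 0.1), keeping genes at 0.5 TPM or more on average, and without that filter, genes alone, a replicate block and each library left out. The members and lists were chosen with earlier results of these data known. Genes named are members past the threshold, the 3 smallest p and the highest mean TPM per role, and a set of PPAR, CPT1, CPT2, PLIN and FABP genes; the others with values were chosen after their values were seen. Promoter and protein sequences were not used here. Of the tested members, 1 is not reported here and is included in the counts and medians over all members.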

Additional observations from a re-analysis of the deposited data

How the results depend on the processing

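The count of members called higher, 1 with edgeR, was 3 with DESeq2, 2 with genes fitted alone, and 0 with limma on log2(TPM + 1), on log2(TPM + 0.1) and without the TPM filter; it ranged from 0 to 6 over the fits that left out 1 library, 6 being without control replicate 1. Members called lower, 0 with edgeR, numbered 5 with DESeq2, 1 with genes alone and 0 to 3 leaving out 1 library. For the locus-numbered copies the count of 0 became 1 with DESeq2 and 0 to 2 leaving out 1 library. For the wider lipid list it became 9 with DESeq2, 1 with upper-quartile scaling, 1 with limma on log2(TPM + 1), 2 with genes alone and 0 to 9 leaving out 1 library. Over all genes, 200 calls became 1336 with DESeq2, 76, 41 and 0 with the limma fits in the order above, 355 with genes alone and 0 to 1825 leaving out 1 library. The median log2 fold change of the members ran from -0.56 to 0.042 leaving out 1 library. Members whose groups do not overlap numbered 24 in CPM, where 25.8% of all genes tested did not overlap, and 15 in TPM. The share over all genes was not taken in TPM, so the TPM count has no such share beside it. With the replicate block, 0 members were called higher and 0 genes in all. Correlations of the deviations of same-numbered libraries were -0.011, -0.012 and 0.040, and those of other pairs ran from -0.039 to 0.039. No sign of pairing by number was seen. The check cannot exclude that equal numbers share something, as deviations of 3 libraries from their mean sum to 0. The log2 fold change of acsl5, -0.040, was 0.0011 with RLE scaling, 0.033 with upper-quartile scaling, 0.19 in the limma fits, 0.018 with genes alone, 0.18 with the replicate block and -0.32 to 0.72 leaving out 1 library. That of fabp2 was 0.010 with limma, 0.097 with the replicate block and -0.93 to 0.91 leaving out 1 library, and that of pparab 0.16 with limma, 0.096 with the replicate block and -0.56 to 0.69 leaving out 1 library. Leaving out 1 library also turned etfa (-0.88 to 0.55), etfb (-0.93 to 0.096), fabp4a (-0.44 to 0.12), plin3 (-0.25 to 0.071) and ppardb (-0.32 to 0.075). The cause was not tested. The 5 members under the count filter were not tested at this depth.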

Other observations

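Outside the named members, the largest log2 fold change of the 87 tested genes of the wider lipid list was that of oxct1a, the mitochondrial transferase by which cells use ketone bodies as fuel. It was at 30.0, 9.86 and 12.4 CPM at 26 °C and 117, 170.3 and 68.8 CPM at 34 °C, with no overlap between groups (6.81-fold higher, adjusted p = 0.0564 by edgeR; log2 change 2.76, SE 0.52). Without control replicate 1 its log2 fold change was 3.42 (edgeR adjusted p = 0.0127, range over the alternatives 6.3e-06 to 0.269). The other 4 ketone body genes tested did not pass in either fit. Fatty acid synthase, fasn, was at 186, 159 and 79.1 CPM at 26 °C and 508, 567 and 233 CPM at 34 °C (adjusted p = 0.143 by edgeR; log2 change 1.63, SE 0.47, and 1.89 without control replicate 1), and the lipogenic transcription factor gene srebf1 at 299, 252 and 229 CPM at 26 °C and 623, 584 and 457 CPM at 34 °C (adjusted p = 0.131 by edgeR; log2 change 1.09, SE 0.30). Neither overlapped between groups, and srebf1 passed as higher without control replicate 1 (log2 fold change 1.22, edgeR adjusted p = 0.0249, range over the alternatives 0.00269 to 0.459). The gene g0s2, whose product inhibits adipose triglyceride lipase in mammals, was at 2.02, 1.03 and 2.22 CPM at 26 °C and 5.46, 3.33 and 4.75 CPM at 34 °C (adjusted p = 0.195 by edgeR; log2 change 1.35, SE 0.45, and 1.48 without control replicate 1), above every control in each heat library.

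Some genes of this list passed as higher only in the fit without control replicate 1, where that library held the highest value or lay among the heat libraries. They were agpat2 and agpat3, acyltransferases of the glycerolipid pathway, at log2 fold changes of 0.50 and 0.25 with it and 1.23 and 1.26 without it. The mitochondrial carrier gene ucp1 went from 0.28 to 1.27, and the gut and liver transcription factor gene hnf4a from 0.56 to 0.95. Of 2 genes described as gastrotropin-like, the ileal bile acid binding type, LOC119903000 was at 26.4, 0 and 2.64 CPM at 26 °C and 0, 7.97 and 0 CPM at 34 °C and LOC119889203 at 11.7, 9.48 and 14.8 CPM at 26 °C and 6.37, 9.46 and 10.01 CPM at 34 °C, and neither passed in either fit. These genes were chosen after their values were seen.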
